A study of Homo sapiens with 2 samples.

Results

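KLK5 to KLK14 are the 10 genes at the epithelial end of the kallikrein cluster on chromosome 19. They were taken from the deposited expression table by gene symbol, and each of the 10 had 1 row among the 21382 genes listed. RNA-Seq was available for 2 untreated human prostate cancer lines, with 1 library of total RNA each. MDA PCa 2b, derived from a bone metastasis, was grown in a serum-rich F-12 medium with cholera toxin, EGF, hydrocortisone and insulin. RC77 T/E, a prostate tumor epithelial line, was grown in a serum-free keratinocyte medium with EGF and bovine pituitary extract, so the effects of line and medium cannot be told apart. The values are TPM, in which the transcripts of a gene are set against its length and against the total of the library. With 1 library per line there is no replicate error, no test was possible, and every difference below is a description of these libraries.

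Tissue kallikreins are secreted serine proteases made as inactive precursors, which other proteases, often other kallikreins, cut to the active form. KLK5, KLK7 and KLK14 are best known from the epidermis, where they digest the corneodesmosomes that hold dead surface cells together and where the inhibitor LEKTI, the product of SPINK5, restrains them. KLK5 and KLK14 also cleave and activate PAR2, the receptor encoded by F2RL1. In the prostate, the other end of the same cluster is better known, since it holds KLK3, the gene for prostate-specific antigen, and KLK2.

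The sequences just upstream of 5 members are shown so that the start regions can be compared. KLK5, KLK6, KLK7 and KLK9 are members listed at 0 in MDA PCa 2b, and KLK14 had the highest level of the 10 in that line. Each runs 5′ to 3′ and ends at the base before the 5′ end of the gene as the deposited table lists it, and capitals mark the GC box letters GGGCGG or CCGCCC. The sequences are from RefSeq.
KLK5, GRCh38.p14 chr19:50953094-50953288, minus strand: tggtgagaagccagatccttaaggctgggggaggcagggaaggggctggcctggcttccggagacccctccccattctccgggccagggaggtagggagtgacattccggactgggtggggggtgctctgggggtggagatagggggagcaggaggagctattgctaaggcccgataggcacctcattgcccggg
KLK6, GRCh38.p14 chr19:50969674-50969841, minus strand: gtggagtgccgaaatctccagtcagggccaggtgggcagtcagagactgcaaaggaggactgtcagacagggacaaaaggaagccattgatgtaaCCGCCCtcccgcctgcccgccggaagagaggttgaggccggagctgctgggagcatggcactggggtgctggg
KLK7, GRCh38.p14 chr19:50984100-50984314, minus strand: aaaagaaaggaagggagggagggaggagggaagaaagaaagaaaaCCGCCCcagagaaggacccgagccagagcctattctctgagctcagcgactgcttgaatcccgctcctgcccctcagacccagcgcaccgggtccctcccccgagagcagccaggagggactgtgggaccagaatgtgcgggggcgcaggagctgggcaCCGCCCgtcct
KLK9, GRCh38.p14 chr19:51009635-51009842, minus strand: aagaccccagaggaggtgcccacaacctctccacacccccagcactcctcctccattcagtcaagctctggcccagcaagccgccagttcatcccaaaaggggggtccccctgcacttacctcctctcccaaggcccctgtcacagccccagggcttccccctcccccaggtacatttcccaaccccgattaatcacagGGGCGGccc
KLK14, GRCh38.p14 chr19:51084246-51084460, minus strand: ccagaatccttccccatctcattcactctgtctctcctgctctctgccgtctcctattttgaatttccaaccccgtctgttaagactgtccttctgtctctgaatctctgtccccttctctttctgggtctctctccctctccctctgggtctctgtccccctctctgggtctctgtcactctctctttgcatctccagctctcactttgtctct

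A search of the 250 bases before each annotated start covered 16 windows of 9 members, some of which overlap one another. KLK8 was not part of it. GGGCGG, the core bound by Sp1 factors, occurred on either strand in 10 of the 16 windows, belonging to 6 of the 9 genes (KLK6, KLK7, KLK9, KLK11, KLK13 and KLK14), and 42.6% of all 35116 windows held it. For KLK14 the match lies outside the stretch printed above. The TATA box letters TATAAA, held by 10.7% of all windows, occurred in none of the 16. The same was found for AGAACA, a half-site of steroid receptors such as the glucocorticoid receptor (12.4% of all windows), for TGANTCA, a site of FOS and JUN (6.57%), and for AACNNGTT, a site of the grainyhead factors (3%). Both strands were searched, and GGGCGG was the only motif matched, so no matches of different motifs overlapped.

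None of the 10 members reached 1 TPM, the mean level that the study asked of an expressed gene, in either line. In MDA PCa 2b, 49.6% of all genes and 57.9% of the protein-coding genes were at 1 TPM or more, and in RC77 T/E these shares were 52.8% and 61.7%. The 10 genes together summed to 0.146 TPM in MDA PCa 2b against 1.46 TPM in RC77 T/E, a sum 9.96 times as high. Over the 5 members above 0 in both lines the sums were 0.146 and 0.397 TPM, 2.72 times as high in RC77 T/E. The median level of all 10 members was 0.00447 TPM in MDA PCa 2b against 0.0768 TPM in RC77 T/E. All 10 were above 0 in RC77 T/E, whereas 5 were listed at 0 in MDA PCa 2b.

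**Figure D1:**
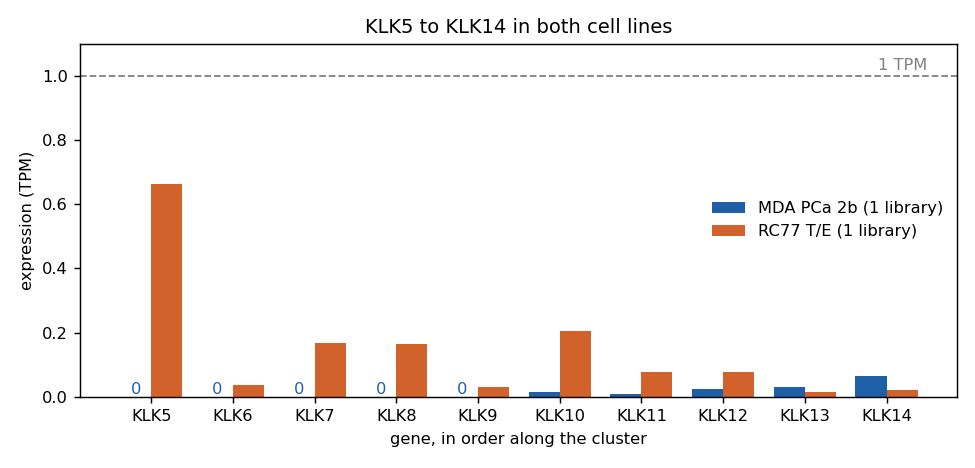
Expression of KLK5 to KLK14 in TPM (vertical axis, starting at 0) in cluster order, with 1 bar per library; a 0 marks a gene listed at 0, and the dashed line is 1 TPM. KLK5 in RC77 T/E, at 0.662 TPM, is the highest of the 20 values, and KLK13 and KLK14 have the higher TPM in MDA PCa 2b, a direction that upper-quartile scaling keeps and that turns under centring of the log2 ratios of TPM plus 1, which takes any gene this near to 0 above 0.

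How few reads a listed 0 allows is unknown, because TPM keeps no record of read numbers. In bulk RNA, fewer cells that use a gene and less RNA per cell cannot be told apart. Of 20 genes that every cell uses, EEF1A1, which encodes a translation elongation factor, was listed at 0 in MDA PCa 2b but at 2393 TPM in RC77 T/E. A 0 in the table can therefore stand for a level that was not estimated. The other 19 of these genes were above 1 TPM in MDA PCa 2b and all 20 in RC77 T/E.

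The proteases of the epidermal shedding group, KLK5, KLK7 and KLK14, did not all have the higher TPM in the same line, with every level under 1 TPM. KLK5 (ENSG00000167754, GRCh38 chr19:50943303-50953093), a trypsin-like enzyme that can activate itself and other kallikreins, had 0.662 TPM in RC77 T/E and was listed at 0 in the other line. It supplied 45.5% of the summed TPM of the 10 genes in RC77 T/E, and 45.4% of all genes had a lower level than KLK5 in that library. The latter share counts the 5729 genes listed at 0 there. KLK7 (ENSG00000169035, chr19:50976468-50984099), the chymotrypsin-like member and a substrate for activation by KLK5, had 0.168 TPM in RC77 T/E and was likewise listed at 0 in the other line. KLK14 (ENSG00000129437, chr19:51077495-51084245), another trypsin-like enzyme, had 0.0655 TPM in MDA PCa 2b but 0.0217 TPM in RC77 T/E. The former is 3.02 times the latter, and it made up 44.9% of the summed TPM of the 10 genes in that line. On the log2 scale of TPM plus 1, RC77 T/E minus MDA PCa 2b was 0.73 for KLK5, 0.22 for KLK7 and -0.06 for KLK14.

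KLK6, KLK8 and KLK9 lie between and beside these genes and, like KLK5 and KLK7, were listed at 0 in MDA PCa 2b. KLK8 (ENSG00000129455, chr19:50996007-51002711), also called neuropsin and active in skin and brain, had 0.163 TPM in RC77 T/E, close to the 0.168 TPM of KLK7. KLK6 (ENSG00000167755, chr19:50958631-50969673), or neurosin, had 0.0358 TPM there. KLK9 (ENSG00000213022, chr19:51002508-51009634) had 0.0295 TPM. KLK5 to KLK9 thus form an unbroken stretch of 5 neighbors that were at 0 in one library and above 0 in the other. Among the 4706 genes under 1 TPM in both lines and above 0 in at least 1, 20.9% were listed at 0 in MDA PCa 2b only and 21.1% in RC77 T/E only. Of the 10 members, 5 were in the first of these classes and 0 in the second.

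The KLK8 and KLK9 values cannot be fully separated from each other. Their listed positions overlap by 204 bases on the same strand, and GENCODE release 29 places another gene, AC011473.4 (chr19:50996018-51009581), over both. It shares 747 exon bases with KLK8, or 40.1% of the KLK8 exon bases, and 787 with KLK9, or 93.7%. AC011473.4 was not analysed here. Antisense transcripts share exon bases with KLK5 (202), KLK6 (401), KLK10 (240) and KLK12 (160), and although the libraries kept the strand, whether the values use it is not given in the sources used here.

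KLK10, KLK11 and KLK12 were above 0 in both lines and had the higher TPM in RC77 T/E. KLK10 (ENSG00000129451, chr19:51012739-51020175), a member without clear protease activity that is often lost in breast tumors, had 0.206 TPM in RC77 T/E against 0.0163 TPM in MDA PCa 2b, 12.6 times as high. KLK11 (ENSG00000167757, chr19:51022216-51028039), a trypsin-like enzyme also found in prostate tissue, had 0.0760 against 0.00895 TPM, 8.49 times as high. KLK12 (ENSG00000186474, chr19:51029092-51035230) had 0.0776 against 0.0248 TPM, 3.13 times as high. The ratios of these 3 neighbors thus ranged from 3.13 to 12.6, but the levels behind them stayed under 0.21 TPM. On TPM plus 1 the log2 ratios were 0.25, 0.09 and 0.07. Without replicates, the 3 ratios cannot be said to differ.

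KLK13 (ENSG00000167759, chr19:51055626-51065114), a trypsin-like enzyme of squamous epithelium, had 0.0305 TPM in MDA PCa 2b but 0.0158 TPM in RC77 T/E, where it was the lowest of the 10. The former is 1.93 times the latter. With KLK14 it was 1 of 2 members with the higher TPM in MDA PCa 2b, and both are at the far end of the cluster. Of the 5 members above 0 in both lines, 3 had a TPM higher by 2-fold or more in RC77 T/E, and 1, KLK14, a TPM higher by 2-fold or more in MDA PCa 2b. Among the 2733 genes under 1 TPM and above 0 in both lines, these shares were 39.0% and 26.2%.

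The order of the levels in RC77 T/E was KLK5, KLK10, KLK7, KLK8, KLK12, KLK11, KLK6, KLK9, KLK14 and KLK13. In MDA PCa 2b it was KLK14, KLK13, KLK12, KLK10 and KLK11, followed by the 5 genes at 0. No neighbors in either order can be said to differ, since there is no spread to set them against. KLK7 and KLK8, and KLK11 and KLK12, were the closest pairs in RC77 T/E.

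Among all genes, the members above 0 lay in the lower part of the distribution. Between 30.4% and 38.8% of genes were lower than the 5 members above 0 in MDA PCa 2b, and between 30.5% and 45.4% were lower than the 10 members in RC77 T/E. The median of all genes above 0 and under 1 TPM was 0.0633 TPM in MDA PCa 2b, which KLK14 alone exceeded. In RC77 T/E it was 0.0904 TPM, which 4 members exceeded (KLK5, KLK7, KLK8 and KLK10).

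**Figure D2:**
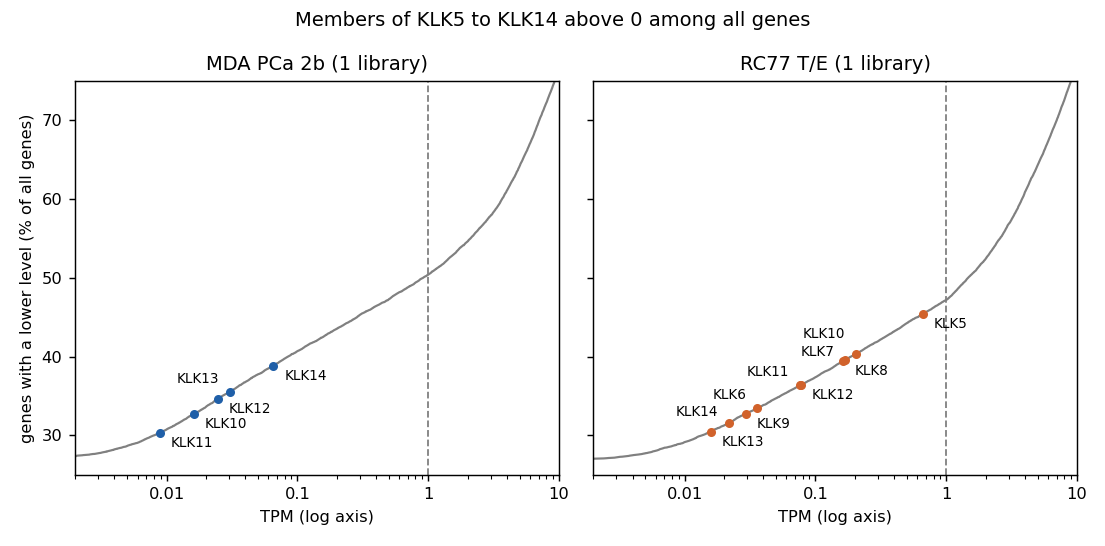
Percent of the 21382 genes with a lower level (vertical axis) against TPM (log axis) for each library, with the members above 0 as points on the grey curve of all genes; the dashed line is 1 TPM. All points lie left of 1 TPM, between 30.4% and 38.8% in MDA PCa 2b and between 30.5% and 45.4% in RC77 T/E. Genes listed at 0 are counted in these percentages.

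Counted at any size of difference, 8 of the 10 members had the higher TPM in RC77 T/E, beside 53.9% of the 4706 genes of like low level that were higher in RC77 T/E. The median log2 ratio of the 10 genes, on TPM plus 1, was 0.08, and that of the 11624 expressed genes (mean of 1 TPM or more) was -0.15. Scaling both libraries to the same upper quartile kept 8 genes higher in RC77 T/E, with KLK13 and KLK14 still 1.72 and 2.70 times as high in MDA PCa 2b. Centring on the -0.15 turned KLK13 to 0.13 and KLK14 to 0.0924, which any gene this near to 0 does on TPM plus 1, so nothing is read from it. None of the 10 reached a 2-fold difference on TPM plus 1, where 19.4% of the 11624 genes were 2-fold or more above the other line in RC77 T/E and 20.0% were so in MDA PCa 2b. No member was among those 11624 genes, and a gene at or under 0.662 TPM cannot reach 2-fold on that scale. On TPM plus 0.1 the count was 4, with log2 ratios of 2.93 for KLK5, 1.42 for KLK7, 1.40 for KLK8 and 1.39 for KLK10. On that scale 21.8% of the expressed genes were 2-fold or more higher in RC77 T/E. The share among genes of like low level was not computed.

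At the other end of the cluster, each listed kallikrein gene had the higher TPM in MDA PCa 2b. KLK3 was at 5323 TPM in MDA PCa 2b, which is 36400 times the summed TPM of the 10 members there, and KLK15, KLK2, KLKP1 and KLK4 were at 1 TPM or more, while all 5 were listed at 0 in RC77 T/E. KLK1 was under 1 TPM in both, at 0.453 TPM in MDA PCa 2b against 0.176 TPM. In MDA PCa 2b, the step from 1 TPM or more to under 1 TPM fell in the 31.9 kb between KLK4 and KLK5. In RC77 T/E, all loci from KLK1 to KLK14 were under 1 TPM. Beyond KLK14, after 13.4 kb, CTU1 was at 5 TPM or more in both lines.

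**Figure D3:**
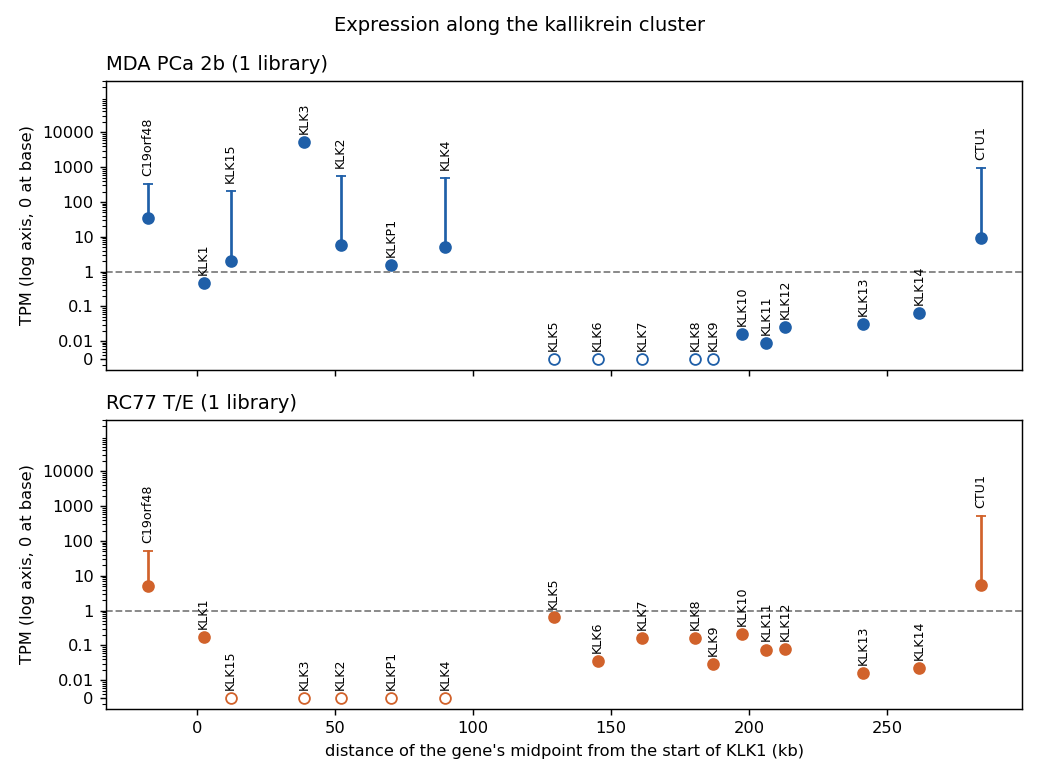
TPM (log axis) of the genes along the cluster against the distance of each gene's midpoint from the start of KLK1 in kb, with 1 panel per library; open circles at the base are genes listed at 0, vertical bars span the values that an open decimal mark allows, and the dashed line is 1 TPM. In MDA PCa 2b the open circles are KLK5 to KLK9, and in RC77 T/E they are KLK15, KLK3, KLK2, KLKP1 and KLK4.

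The lines differed in their lineage markers. Here and in the lists below, values are given for MDA PCa 2b first. All 7 prostate basal markers were higher by 2-fold or more in RC77 T/E (KRT5 had 0.00435 and 4027 TPM), while 4 of 6 luminal markers, KLK3 among them, were higher by 2-fold or more in MDA PCa 2b. Of 7 markers of maturing squamous cells, SPRR1B was listed at 0 and at 118.8 TPM, KRT13 at 0 and at 0.763 TPM, IVL had 0.00363 and 1.36 TPM, SBSN had 0.0147 and 1.62 TPM, and KRT1 had 0.00466 and 0.0189 TPM. KRT10, at 17.8 and 8.49 TPM or 178 and 84.9 TPM, and KRT4, at 0.464 and 0.140 TPM, were higher in MDA PCa 2b. The 7 genes summed to 18.3 and 131 TPM with the lower reading of KRT10, and to 178 and 208 TPM with the higher. Without SPRR1B the sums were 18.3 and 12.4 TPM or 178 and 88.8 TPM, so that the direction of the sum rested on that gene. The part of these genes in the member levels was not tested.

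Markers of other cell types give a scale for such low values. Of 5 markers of blood and endothelium, HBB had 0.216 TPM and VWF 0.191 TPM in MDA PCa 2b, above all 10 members in that library, and PTPRC and PECAM1 had 0.0113 and 0.0119 TPM. In RC77 T/E these 4 were at 0 except VWF at 0.0177 TPM, which is above KLK13. The fifth, CD68, which epithelial cells can also express, had 0.663 and 37.9 TPM. Of 5 stromal markers, LUM, COL3A1 and DCN had 0.491 to 0.565 TPM in MDA PCa 2b, COL1A1 had 0.554 and 8.24 TPM, and the highest other stromal marker in RC77 T/E was PDGFRB at 0.0567 TPM. The part of other cells in the member values was not tested.

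Genes that act around the kallikreins were set beside the 57.9% and 61.7% of protein-coding genes at 1 TPM or more. At that level were 4 and 5 of 9 activating proteases and 5 and 7 of 15 inhibitors. Of 12 targets 7 and 8 reached it, and of 11 regulators 8 and 10 did. Of 9 proteases that activate kallikreins or related precursors, 6 had a mean of at least 1 TPM. Among them, 2 were higher by 2-fold or more in each line, beside the 19.4% and 20.0% of all expressed genes. PLAU, the urokinase gene, had 0.373 and 235.7 TPM. CTSC, the gene for cathepsin C, had 0.0814 and 168.7 TPM. PRSS3, which encodes mesotrypsin, had 37.5 and 6.40 TPM, and HPN, which encodes hepsin, had 10.4 or 104 TPM, depending on a lost decimal mark, and was listed at 0 in the other line. ST14, the gene for matriptase, which activates epidermal kallikreins, was higher 1.66 times in MDA PCa 2b, and PRSS8, the gene for prostasin, was higher 1.25 times in RC77 T/E. The median log2 ratio of the 9 genes was -0.01.

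Of 15 inhibitor genes, 7 had a mean of at least 1 TPM. SPINK5, whose product LEKTI holds KLK5, KLK7 and KLK14 in check, had 7.01 and 0.180 TPM, a ratio of 38.9. The line with the lower summed member TPM thus had the higher SPINK5 level. With 2 libraries, any gene that differs must run either with or against that sum, so no relation is read from this. SPINK6 was listed at 0 and at 0.144 TPM, and SPINK9 was at 0 in both. SLPI was higher 2.46 times in MDA PCa 2b. At the lowest of its 3 decimal readings this difference fell under 2-fold on TPM plus 1 with centring or upper-quartile scaling. SERPINA1 had 0.400 and 14.2 TPM and SERPINF2 0.116 and 2.11 TPM, so that 2 inhibitors were higher by 2-fold or more in each line. SERPINA3, whose mean was under 1 TPM, had 0.302 and 1.48 TPM. SPINT1, SPINT2 and PI3, which also encode inhibitors of serine proteases, were between 131 and 536 TPM in both lines and within 2-fold. The median log2 ratio of the 15 genes was 0.00, with 4 listed at 0 in both lines.

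Of 12 target genes, 10 had a mean of at least 1 TPM, of which 4 were higher by 2-fold or more in RC77 T/E, and 3 were so in MDA PCa 2b. The corneodesmosome parts that KLK5, KLK7 and KLK14 cut in skin were under 1 TPM except CDSN in RC77 T/E, with DSG1 listed at 0 and at 0.00521 TPM, DSC1 at 0.00823 and 0.00668 TPM, and CDSN at 0.0244 and 2.31 TPM. DSG2, a desmosomal cadherin of simple and basal epithelia, had 3.62 and 119.8 TPM. The protease-activated receptors had different patterns, since F2RL1, the gene for PAR2, had 12.7 and 24.3 TPM, F2R (PAR1) had 0.521 and 15.1 TPM, and F2RL3 (PAR4) had 7.58 and 0.00715 TPM. IL1B had 0.187 and 179 TPM, and FLG, the gene for filaggrin, had 4.07 and 0.529 TPM. The cathelicidin gene CAMP was higher 7.69 times in MDA PCa 2b, and CDH1 and FN1 were within 2-fold. The median log2 ratio of the 12 genes was 0.28.

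Of 11 transcription factors and hormone receptors linked to kallikrein expression, 10 had a mean of at least 1 TPM, of which 5 were higher by 2-fold or more in RC77 T/E, and 3 were so in MDA PCa 2b (2 with centring or upper-quartile scaling, where GRHL1 fell under 2-fold at its lowest decimal reading). NR3C1, the glucocorticoid receptor gene, was higher 4.66 times in RC77 T/E, and TP63, the basal epithelial factor, was listed at 0 and at 5.17 or 51.7 TPM. Among the grainyhead factors, GRHL3 was higher 3.52 times in RC77 T/E, while GRHL2 and GRHL1 were 5.33 and 2.37 times as high in MDA PCa 2b. VDR was higher 3.84 times in MDA PCa 2b, RARG was higher by more than 2-fold in RC77 T/E, and ESR1 was at 0 and at 2.23 TPM or more. RARA and KLF4 were within 2-fold, and PGR was at or near 0 in both. The median log2 ratio of the 11 genes was 0.23.

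**Figure D4:**
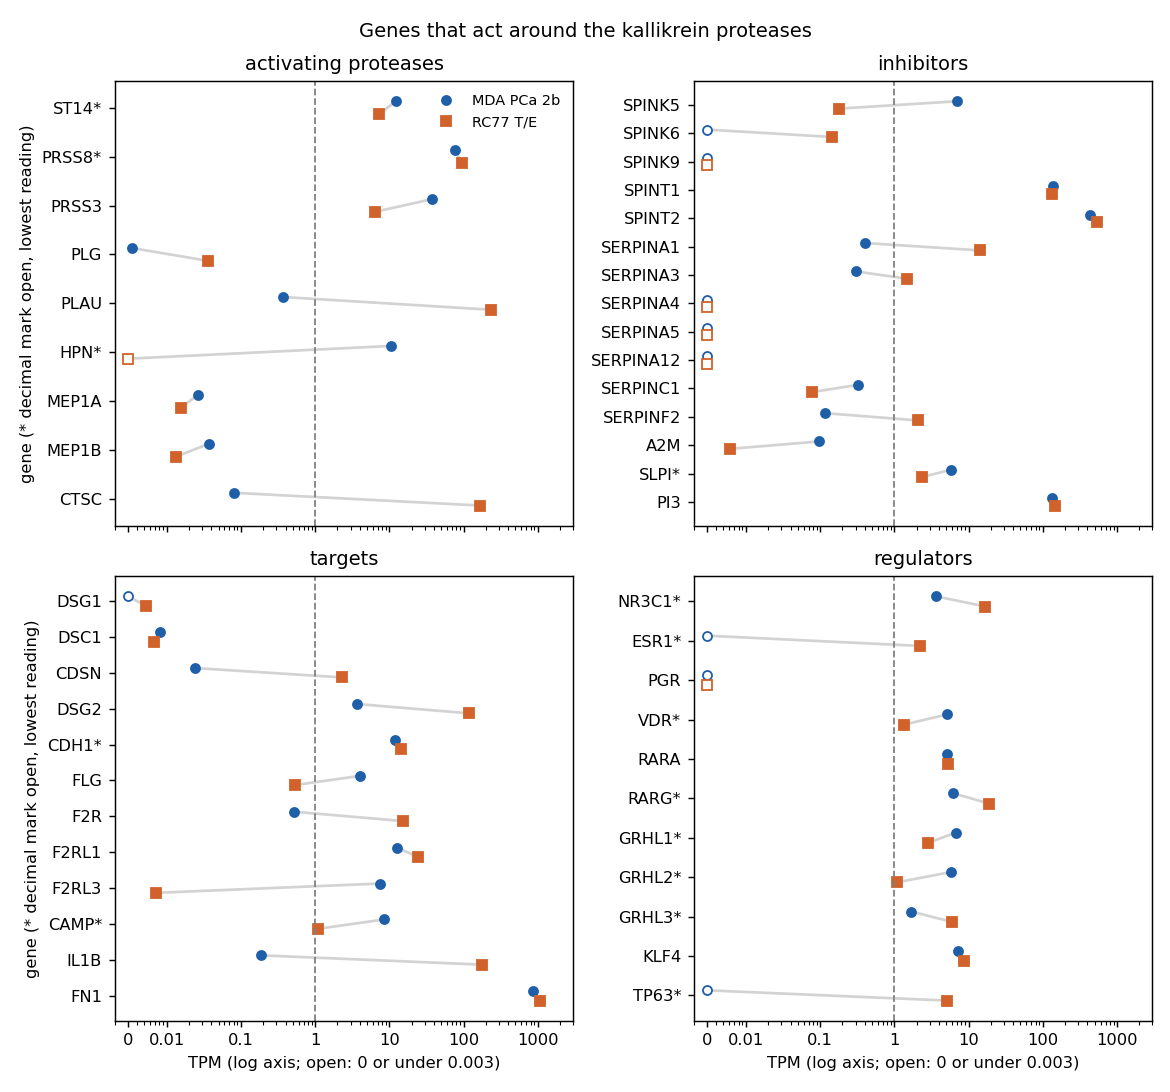
TPM (log axis) of the listed genes that activate, inhibit, are cut by or regulate kallikreins, with a circle for MDA PCa 2b and a square for RC77 T/E; open symbols are at or near 0, the dashed line is 1 TPM, and an asterisk marks genes whose decimal mark is open, drawn at the lowest value. Among others, SPINK5, HPN and F2RL3 have the circle far to the right of the square, and PLAU, CTSC, DSG2 and IL1B have the square far to the right of the circle.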

How the data were processed

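The authors deposited TPM values per locus for 2 untreated cell lines (MDA PCa 2b, RC77 T/E) with 1 library each, and the mean and standard error over both. The submitters' processing notes name CASAVA, FastQC 0.11.9, Trimmomatic 0.38 and Salmon 1.2.0, and the build GRCh38. The annotation is not given in the sources used here. The depth is unknown, so no interval or floor was set.

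Many deposited values of 1 TPM or more had lost their decimal mark. It was restored from the deposited mean and standard error, which left 1 position in 16284 of 22791 rows and 2 or 3 in 6507. In 5000 simulated rows, the positions included the true one in 5000. Those rows were written by the format rules that the restoration assumes, so this checks the procedure and not the deposited marks. The lowest position was used for counts, sums and medians. All 10 members were under 1 TPM with their mark intact, so none depended on this step. A repeated locus was used once, and loci of 1 symbol were summed.

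Ratios were log2 of TPM plus 1, with alternatives for the pseudocount, scaling, threshold, fold, filter and decimal mark. An expressed gene had a mean of at least 1 TPM. No test was run. Members, the 12 gene lists and motifs were chosen with earlier results of these data known. All members and every list gene at 1 TPM or defining its list were to be named. Some list genes are not reported here. Positions of 7 of 10 members equal those of GENCODE release 29, and all 10 are on the minus strand. Promoter windows are from RefSeq on GRCh38.p14. Python 3.11.15, numpy 2.4.6 and matplotlib 3.10.9 were used.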

Additional observations from a re-analysis of the deposited data

How the results depend on the processing

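No paired analysis was possible because there is 1 library of each line, and no library could be left out. The median log2 ratio of the 10 kallikreins, 0.08 on TPM plus 1, was 0.60 on TPM plus 0.1 and 0.24 after centring on the median of expressed genes. The count higher by 2-fold or more in RC77 T/E was 0 in every setting on TPM plus 1. Genes at or under 0.662 TPM cannot reach 2-fold there, so these counts of 0 do not show stability. On TPM plus 0.1 the count was 4, beside 21.8% of the expressed genes, none of which is a member. In RC77 T/E, 1 member was at or above 0.5 TPM and 4 at or above 0.1 TPM, the latter threshold chosen after seeing the data. Of all genes, 52.8% were at 1 TPM or more in that line, so the shares at these lower thresholds are at least as large. Centring reversed KLK13 to 0.13 and KLK14 to 0.0924, because it subtracts the same -0.15 from every log2 ratio, and ratios of genes near 0 are small on TPM plus 1. A 4-fold limit left 9.69% of expressed genes higher in RC77 T/E, 1 inhibitor in each direction, 1 regulator higher in RC77 T/E and 0 regulators higher in MDA PCa 2b. These counts hold for the lowest decimal reading on TPM plus 1. At higher readings NR3C1 (log2 ratio 2.19) and ESR1 (4.54 or 7.81) also passed 4-fold in RC77 T/E. GRHL2 (-2.31 or -2.40) then did so in MDA PCa 2b. With centring or upper-quartile scaling, 1 inhibitor in place of 2 and 2 regulators in place of 3 were higher by 2-fold or more in MDA PCa 2b, and 5 targets in place of 4 in RC77 T/E, with F2RL1 added. Of the 30 values of single members under the other pseudocount and both scalings, 11 moved by less than 1.5 times, 17 by more and 2 reversed. The decimal mark and the choice of row could not move them. The unknown depth limits all levels near 0.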

Other observations

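The 10 members coincide with an unbroken run of neighboring loci under 1 TPM in both lines, bounded by KLK4, which passed 1 TPM in MDA PCa 2b, and by CTU1. Of 4387 such runs over all chromosomes, 103 held at least 10 loci and the longest held 109. In RC77 T/E alone the run reached from KLK1 to KLK14 and held 16 loci, and 51 of 4444 runs were at least as long. Of the 16 listed genes within 200 kb of the cluster, 9 were at 0 in both lines and 4 reached 1 TPM. Besides CTU1 these were C19orf48, for which the lost decimal mark leaves 33.6 or 335.6 TPM in MDA PCa 2b, against 5.25 or 52.5 TPM, and the small nucleolar RNA genes SNORD88B and SNORD88C within its bounds. SNORD88C had 3926 and 2425 TPM, while SNORD88B had 4102 TPM in MDA PCa 2b and was listed at 0 in RC77 T/E. SNORD88A, also within the bounds of C19orf48, was listed at 0 in both lines. These loci are short and TPM is set against length, so how many reads stand behind such values is unknown.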
